A study of Mus musculus with 7 samples.

Results

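The class IIa histone deacetylases Hdac4, Hdac5, Hdac7 and Hdac9, the transcription factors Mef2a, Mef2c and Mef2d, the transcriptional co-repressor Dach2, the transcription factor Runx1 and the cell adhesion molecule Ncam1 were measured in the quadriceps muscle of AR113Q knock-in mice, a model of spinal and bulbar muscular atrophy (SBMA), a polyglutamine disease. These 10 genes, of 31131 genes on the array, were followed through every array probe that carries one of their names, which gave 19 of 39429 probes. Each mouse had its own single-dye Agilent expression array, with 4 WT mice and 3 AR113Q mice. All were C57BL/6 mice labelled as 3 months or 90 days old. AR113Q mice carry a humanized allele with an expanded CAG tract in place of the mouse gene, so the mutant protein is made under the mouse's own promoter in every cell type that uses it, and motor neurons as well as muscle express it. By the labels the controls were WT, but the study's own text speaks of a control line that carries a humanized allele with a shorter CAG tract, and which of these was hybridized is not settled by these sources. The sex of the mice is not in the labels.

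Class IIa HDACs bind MEF2 proteins and hold MEF2 target genes silent. Kinases of the CaMK, PKD, SIK, AMPK and MARK families phosphorylate them, 14-3-3 proteins then keep them in the cytoplasm, and calcineurin acts in the opposite direction. When a muscle loses its nerve, Hdac4 accumulates, Dach2 falls, and the repression of myogenin is lifted, so that acetylcholine receptor subunits and the ubiquitin ligases of atrophy are induced. Runx1 and Ncam1 are classical genes of denervated muscle, the first limiting fiber breakdown and the second spreading from the synapse over the whole fiber.

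The promoters show which of these genes carry the letters of the factors themselves. RefSeq promoters (GRCm38.p6, from 250 bases before to 50 bases after a start site) were found for 9 of the 10 genes, 17 promoters in all, and none for Ncam1. They were searched on both strands for the MEF2 box, for the RUNX letters TGTGGT and for the E-box CANNTG, whose letters may overlap each other. The MEF2 box was present in 2 of the 17, those of Hdac5 and Mef2a, against 3.19% of 32851 promoters. The RUNX letters were present in 2, the first promoter of Runx1 and the second of Dach2, against 16.8% of all promoters, and the E-box in 9, against 72.3%. Printed here are the stretch before the Hdac5 start (chr11:102230173-102230272, minus strand), the stretch around the Mef2a start (chr7:67372849-67372948, minus strand) and 30 bases after the Runx1 start (chr16:92826026-92826055, minus strand). Capitals mark the MEF2 box of Hdac5 and Mef2a and both copies of the RUNX letters, read on the opposite strand, of Runx1.
Hdac5: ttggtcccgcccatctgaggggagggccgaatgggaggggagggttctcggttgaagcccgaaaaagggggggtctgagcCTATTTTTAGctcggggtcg
Mef2a: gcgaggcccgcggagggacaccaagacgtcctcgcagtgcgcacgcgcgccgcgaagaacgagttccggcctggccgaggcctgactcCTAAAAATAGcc
Runx1: tcataaacaACCACAgaACCACAagttggg
The Hdac5 box begins at -20 and the Mef2a box at -2 from the start site, and the Runx1 copies begin at 29 and 37. These are matches of letters and not measured binding sites.

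For each array the scanner intensity was taken as log2, quantile normalized between arrays and averaged over the spots of a probe, and all signals below are on this log2 scale. Between 47.6% and 55.8% of the probes were well above background on an array, and 0 spots were saturated. The 20991 probes that were well above background on 3 or more of the 7 arrays were tested with limma, with Benjamini-Hochberg adjustment over all of them, and a probe passed at an adjusted p of at most 0.05. A probe that passed and differed by 1 or more on the log2 scale was counted as differentially expressed. The arrays lay on 5 slides, and the genotypes met on slide 2 alone, through WT replicate 2 and AR113Q replicate 1, so the difference within that slide is given beside the members that passed. Those 2 arrays are among the 7 of the test, so it is no separate support. With 7 arrays the precision of each value is limited.

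Of the 19 probes, 15 were tested, at least 1 for each of the 10 genes, and 12 of these were well above background on all 7 arrays. Both Runx1 probes and 1 of the 2 Mef2d probes rose past the fold threshold, and Mef2c fell past it, as did Hdac9, whose AR113Q signal was at background. Hdac5 rose and 1 of the 3 Ncam1 probes fell by less than the fold threshold. In all, 7 of the 15 tested probes passed, against 43.8% of all tested probes, 4 of them higher in AR113Q (22.2% of all) and 3 lower (21.6%). Differentially expressed were 5 probes, against 24.8% of all tested probes, 3 of them higher (12.2% of all) and 2 lower (12.6%). Hdac9 probe 1 was above background in WT muscle alone, so it entered the test through the genotype in which it was high and its p-value sets a signal against background. Without it, 6 of 14 tested probes passed, 4 higher and 2 lower, and the differentially expressed probes that were lower numbered 1. The genotypes did not overlap for 8 of the 15, where 49.6% of all tested probes had no overlap. Hdac9 probe 1 is among the 8, although its entry through WT alone set the genotypes apart. The median absolute log2 fold change was 0.58 over the 15 probes, again with Hdac9 probe 1, and 0.55 over all tested probes. The members therefore passed about as often as any probe on these arrays, and they differed from one another in direction and size.

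**Figure D1:**
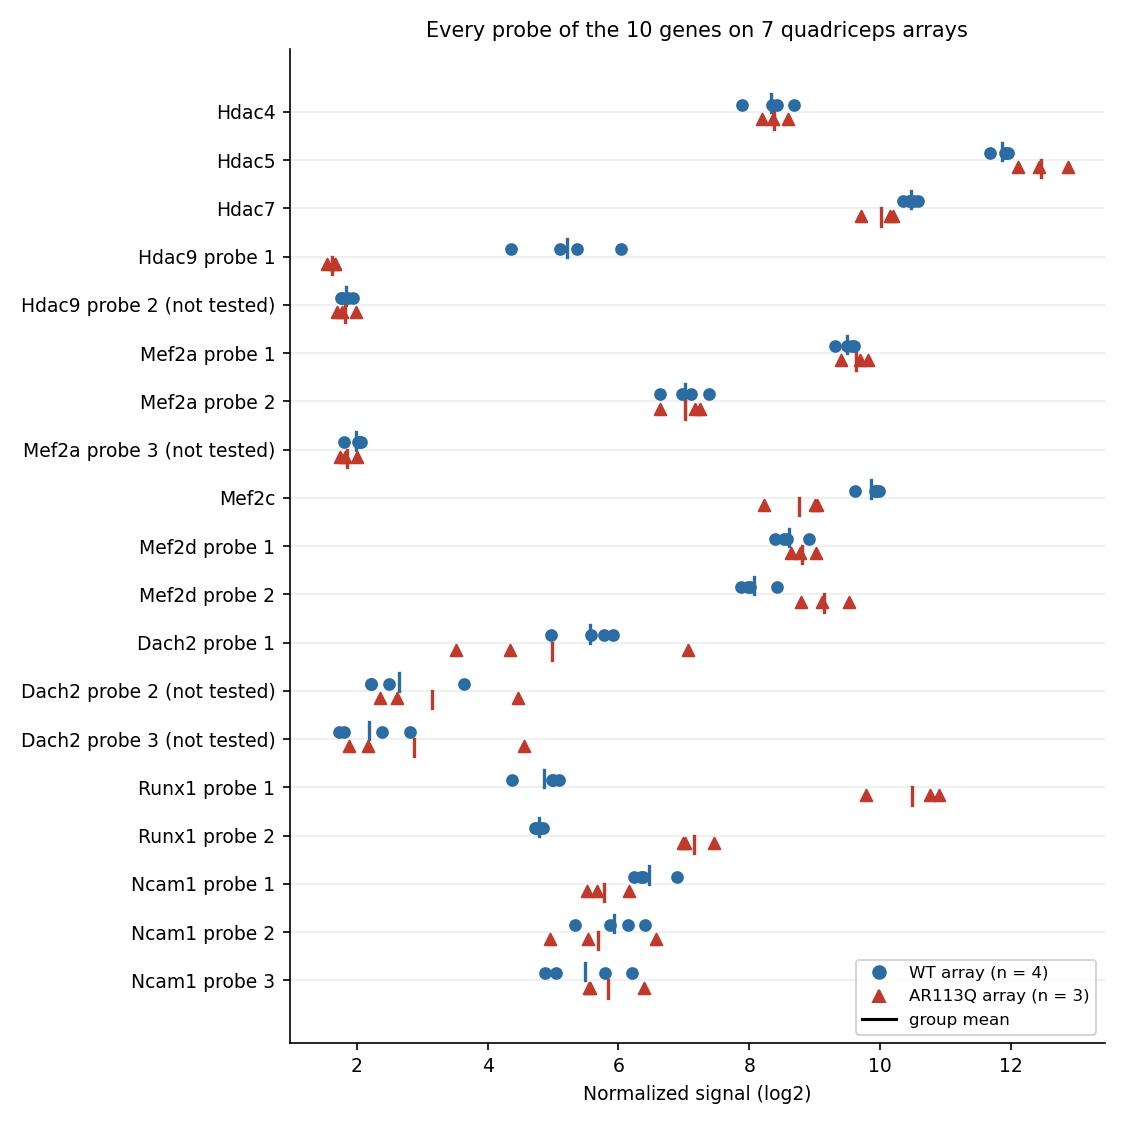
Normalized signal (log2, horizontal axis) of the 19 probes on each of the 7 arrays, with circles for the 4 WT arrays, triangles for the 3 AR113Q arrays and a vertical line at each group mean. The AR113Q arrays lie far to the right of WT for both Runx1 probes and far to the left for Hdac9 probe 1, while Hdac4 and Mef2a overlap.

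Among the class IIa HDACs, Hdac5, which represses MEF2 and is exported from the nucleus with muscle activity, was the only one that rose. Its signal was 11.67, 11.96, 11.91 and 11.93 on the WT arrays and 12.87, 12.42 and 12.10 on the AR113Q arrays. Every AR113Q array was above every WT array, with replicate 3 nearest to WT. Hdac5 rose by 0.60 on the log2 scale (standard error 0.20, adjusted p = 0.0445 from limma), and within slide 2 the difference was 0.91. Of 21 alternative settings 12 kept the call, among them no fold threshold, which repeats the reported fit. Leaving out any array other than AR113Q replicate 3 raised the adjusted p above the threshold. It was highest, 0.117, without AR113Q replicate 1, where the log2 fold change was 0.39. The probe lies on chr11:102057076-102057135 of mm9, minus strand.

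Hdac4, the class IIa deacetylase that accumulates in denervated muscle, had a signal of 8.69, 8.43, 7.89 and 8.35 on the WT arrays and of 8.19, 8.37 and 8.58 on the AR113Q arrays. The genotypes overlapped throughout. The log2 fold change was 0.05, with a 95% confidence interval from -0.45 to 0.54 (adjusted p = 0.880 from limma). A second probe, which the array describes as a predicted Hdac4 transcript and does not name Hdac4, gave 0.30 (adjusted p = 0.421). Both values concern the RNA, and the protein was not measured on these arrays.

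Hdac7, a class IIa deacetylase best known from vessels and lymphocytes, had a signal of 10.51, 10.35, 10.58 and 10.45 on the WT arrays and of 9.71, 10.20 and 10.15 on the AR113Q arrays. The genotypes did not overlap, but the log2 fold change of -0.46 (standard error 0.17) had an adjusted p of 0.0612 from limma and did not pass. It passed in 5 of 21 alternative settings, with adjusted p-values from 0.0352 to 0.174 over all of them.

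Hdac9 is the class IIa gene known to fall in denervated muscle and to give, besides the full enzyme, a shorter form without the deacetylase domain. Its 2 probes are shown by their first 30 bases because only the first was above background in WT muscle.
Hdac9 probe 1: ggtgatctcttgttttgtgttgtaaatata
Hdac9 probe 2: tgatctgacagctatttgtgatgcatcgga
Probe 1 (chr12:35056405-35056464 of mm9, minus strand) had a signal of 5.10, 5.36, 6.04 and 4.36 on the WT arrays and of 1.67, 1.66 and 1.55 on the AR113Q arrays. It was well above background on all 4 WT arrays and on 0 of 3 AR113Q arrays, so the AR113Q signal is known only as a rough bound. With this bound, probe 1 was lower by 3.02-fold or more. For it, the dimmest signal still well above background on each AR113Q array stood in for the AR113Q signal. A brighter spot can still miss that mark, so 3.02 is no strict minimum, and it holds for this background handling alone. The WT mean was 5.21 ± 0.70 (SD, n = 4). The AR113Q mean as measured was 1.62 ± 0.07 (SD, n = 3), with an adjusted p of 0.000253 from limma that compares the WT signal with values at background. The measured difference within slide 2 was -3.70, again against a signal at background. Probe 2, further along the transcribed strand (chr12:34792084-34792143), was well above background on 0 of 7 arrays, with signals between 1.70 and 1.99, and was not tested.

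The MEF2 factors, which bind the MEF2 box and switch on genes of the contracting fiber, did not move together. Mef2c, the form most tied to muscle differentiation and sarcomere genes, had a signal of 9.97, 9.92, 9.93 and 9.62 on the WT arrays and of 8.22, 9.01 and 9.04 on the AR113Q arrays. All AR113Q arrays were below all WT arrays, and replicate 1 was the lowest. Mef2c fell by 1.11 on the log2 scale (standard error 0.23, adjusted p = 0.00600 from limma), and within slide 2 the difference was -1.70. Without AR113Q replicate 1 the log2 fold change was -0.84 (adjusted p = 0.00891), under the fold threshold but still past the adjusted p. The probe lies on chr13:83772788-83772847 of mm9, plus strand.

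Mef2a had 3 probes on chromosome 7. Probe 1 had a signal of 9.59, 9.58, 9.49 and 9.31 on the WT arrays and of 9.69, 9.40 and 9.82 on the AR113Q arrays, and the genotypes overlapped. Its log2 fold change was 0.14, with a 95% confidence interval from -0.24 to 0.52 (adjusted p = 0.507 from limma). Probe 2 gave -0.01, with an interval from -0.54 to 0.53 (adjusted p = 0.981). Probe 3 was well above background on 0 of 7 arrays and was not tested. Neither interval reaches a log2 fold change of 1 in either direction.

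Mef2d, the form whose splicing and phosphorylation change as muscle matures, was measured by a pair of probes of the same transcript that changed by different amounts, and the first 30 bases of each are shown for that reason.
Mef2d probe 1: caaaaactacccaacaacaaaacccagata
Mef2d probe 2: cagagcctgaggctgagggctcagctgtga
Probe 1 (chr3:87972971-87973030 of mm9, plus strand) had a signal of 8.53, 8.58, 8.39 and 8.91 on the WT arrays and of 9.03, 8.77 and 8.64 on the AR113Q arrays. Its genotypes overlapped, and the log2 fold change was 0.21 (95% confidence interval from -0.21 to 0.63, adjusted p = 0.378 from limma). Probe 2, for which the array annotation gives no mapped position, had a signal of 7.87, 8.01, 7.97 and 8.42 on the WT arrays and of 9.53, 8.79 and 9.11 on the AR113Q arrays. Here every AR113Q array was above every WT array, and Mef2d probe 2 rose by 1.08 on the log2 scale (standard error 0.22, adjusted p = 0.00543). Within slide 2 it was higher by 1.52. Another probe, described by the array as a predicted Mef2d transcript but not named Mef2d, lies on chr3:87975777-87975836, beyond probe 1 on the same strand. Its signal was 12.66, 12.94, 12.71 and 12.64 on the WT arrays and 13.91, 13.29 and 13.85 on the AR113Q arrays, higher by 0.94 on the log2 scale (standard error 0.19, adjusted p = 0.00552 from limma) and by 0.97 within slide 2. With the mean of the named probes, Mef2d had a log2 fold change of 0.64 (adjusted p = 0.0270).

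**Figure D2:**
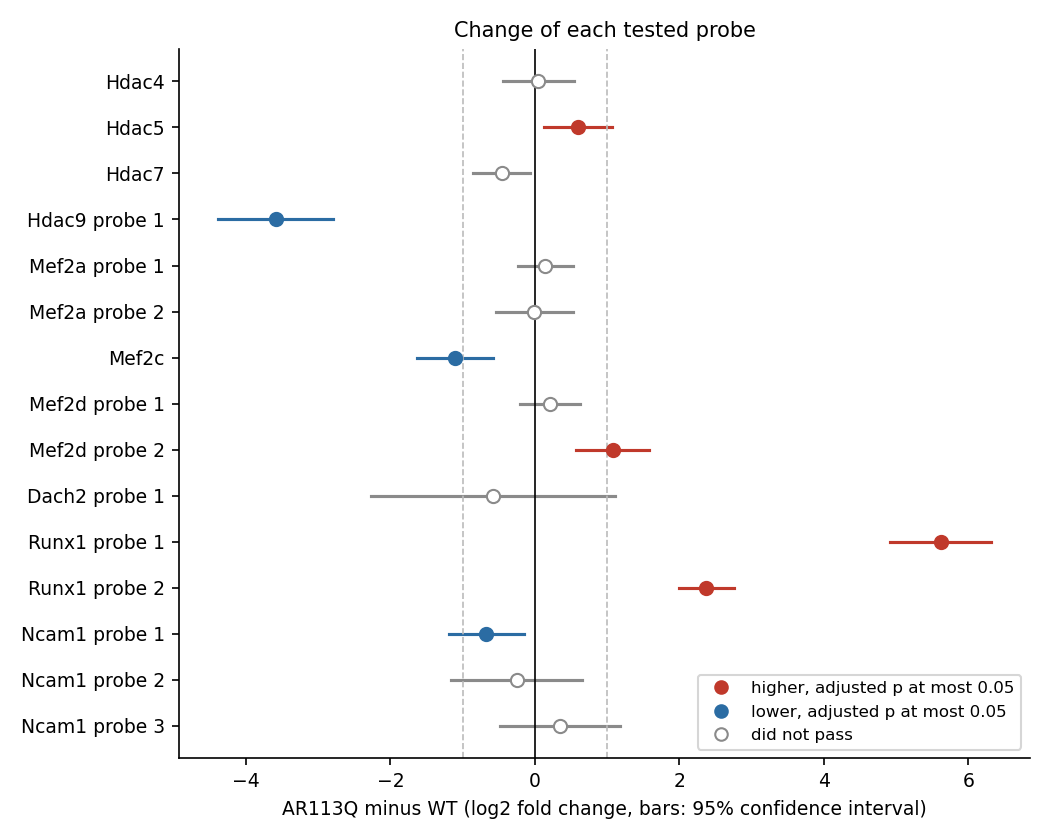
Log2 fold change of AR113Q over WT (horizontal axis) for the 15 tested probes, with bars for the 95% confidence interval, filled points for an adjusted p of at most 0.05 and dashed lines at a log2 fold change of 1 in either direction. Runx1 probe 1 stands at 5.62 and Runx1 probe 2 at 2.37, while the point of Hdac9 probe 1 rests on AR113Q signals that were not well above background.

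Dach2, which represses myogenin in innervated muscle, varied most among the AR113Q mice. Probe 1 (chrX:110949122-110949181 of mm9, plus strand) had a signal of 4.96, 5.78, 5.92 and 5.58 on the WT arrays and of 3.52, 4.35 and 7.07 on the AR113Q arrays. Replicates 1 and 2 of AR113Q were below every WT array and replicate 3 was above every WT array. The log2 fold change was -0.58, with a 95% confidence interval from -2.27 to 1.11 (adjusted p = 0.551 from limma). Without AR113Q replicate 3 it was -1.62 (adjusted p = 0.00799), and without AR113Q replicate 1 it was 0.15 (adjusted p = 0.886), so the direction and the call rest on single arrays. Probes 2 and 3 were not tested, since each was well above background on 1 array, AR113Q replicate 3, with signals of 4.46 and 4.55. On that array all 3 Dach2 probes had their highest signal.

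The slow myosin gene Myh7, read here because of the spread of Dach2 and so chosen after its values were seen, also differed between mice of 1 genotype. Its signal was 4.95, 12.56, 11.89 and 6.66 on the WT arrays and 6.66, 6.22 and 13.59 on the AR113Q arrays. The 2 WT arrays with the highest Myh7 signal were also the 2 with the highest Dach2 probe 1 signal, and AR113Q replicate 3 was the highest of its genotype for both. The part of slow fiber content in the Dach2 values was not tested. In whole muscle, fewer cells of a type and less RNA per cell cannot be told apart, which holds for every gene reported here.

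Runx1, the DNA-binding partner of Cbfb and a gene strongly induced in denervated muscle, had the largest increase of the 10 genes. Its 2 probes lie near each other on chromosome 16 of mm9, minus strand, at chr16:92605785-92605844 and chr16:92604413-92604472, and the first 30 bases of each are shown because the size of the change differed between them.
Runx1 probe 1: caggagggcccttggaggccaccaggaaga
Runx1 probe 2: tgtgcatcgtgtcactgtaaatgtaatggt
Probe 1 had a signal of 4.37, 5.0, 4.99 and 5.10 on the WT arrays, where it was well above background on 3 of 4, and of 10.89, 9.79 and 10.76 on the AR113Q arrays. The genotypes were far apart, and probe 1 rose by 5.62 on the log2 scale (standard error 0.30, adjusted p = 4.5e-05 from limma). Within slide 2 it was higher by 5.90. Probe 2 had a signal of 4.74, 4.72, 4.85 and 4.80 on the WT arrays and of 7.02, 7.45 and 6.99 on the AR113Q arrays, well above background on all 7. Probe 2 rose by 2.37 on the log2 scale (standard error 0.17, adjusted p = 8.93e-05 from limma), and within slide 2 it was higher by 2.29. Both probes kept their direction in all 20 alternative settings and passed in 19 of them. The exception was slide as a fixed effect, where the adjusted p was 0.0508 for each.

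The size of the Runx1 change depended on how the background was handled. With normexp background correction the log2 fold changes were 3.36 for probe 1 and 1.03 for probe 2, with the mean spot signal and no background subtraction 3.52 and 1.06, and with the authors' normalized values 2.83 and 0.65. The fitted difference of Hdac9 probe 1, which is no bound because its AR113Q signal was at background, went from -3.59 to -0.64, -0.59 and -0.32 in the same order. Mef2d probe 2 reached 0.69 with the authors' values. All of these passed the adjusted p. Hdac5, far above background on all arrays, gave 0.64 in each of the 3 settings.

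The 4 genes with more than 1 tested probe allowed the change of 1 probe to be set against that of another on the same arrays, a comparison chosen after the values were seen. In an exact two-sided permutation test with 35 arrangements, whose smallest possible p is 0.0286, 6 pairs were compared. The change of Runx1 probe 1 exceeded that of probe 2 by 3.24 on the log2 scale (n = 4 and 3, exact p = 0.0286, adjusted over the 6 pairs 0.0571). The change of Mef2d probe 1 was smaller than that of probe 2 (difference -0.87, exact p = 0.0286, adjusted 0.0571). For Ncam1 the difference was -0.60 for probe 2 against probe 3 (exact p = 0.0286, adjusted 0.0571), -1.03 for probe 1 against probe 3 (exact p = 0.0571, adjusted 0.0857) and -0.42 for probe 1 against probe 2 (exact p = 0.314, adjusted 0.377). For Mef2a probe 1 against probe 2 it was 0.15 (exact p = 0.714). With 6 pairs, the smallest possible p stays under the threshold after adjustment only where 4 or more pairs reach it, so the adjusted values say little about a single pair.

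**Figure D3:**
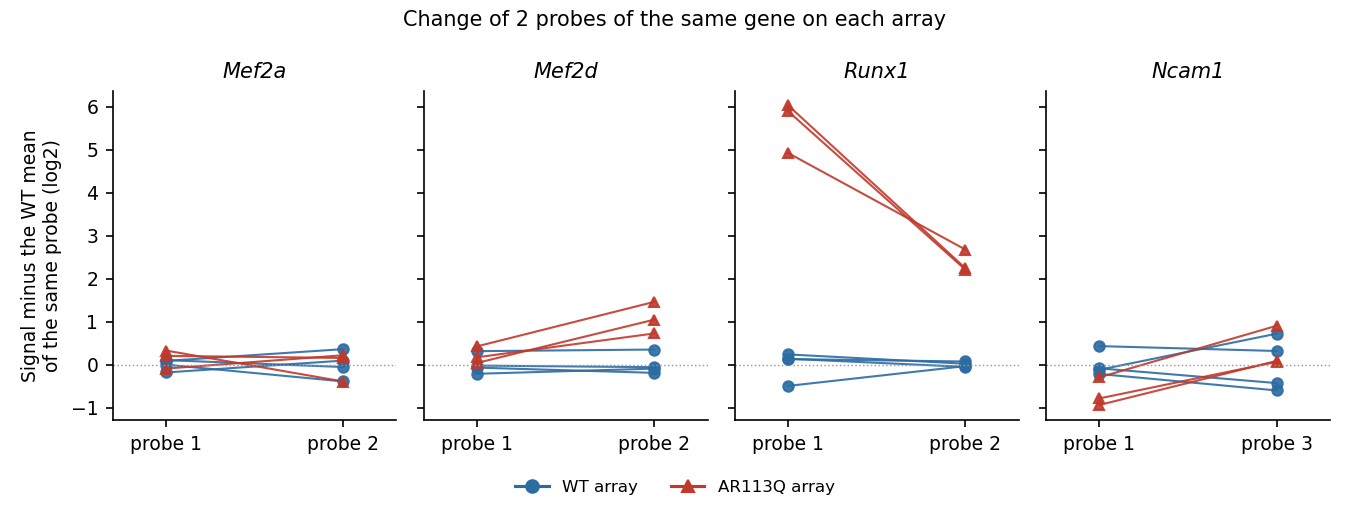
Signal of each array minus the WT mean of the same probe (log2, vertical axis) for a pair of probes of Mef2a, Mef2d, Runx1 and Ncam1, with a line per array joining both probes, circles for WT and triangles for AR113Q. All 3 AR113Q lines of Runx1 fall from probe 1 to probe 2 but stay above WT, and those of Mef2d rise from probe 1 to probe 2.

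Ncam1, which spreads over the surface of denervated fibers and is also made by satellite cells and Schwann cells, had 3 dim probes on chromosome 9 that did not share a direction. Probe 1 (chr9:49310320-49310379 of mm9, minus strand) had a signal of 6.89, 6.34, 6.24 and 6.37 on the WT arrays and of 5.52, 5.67 and 6.16 on the AR113Q arrays. All AR113Q arrays were below all WT arrays, replicate 3 by little, and Ncam1 probe 1 fell by 0.68 on the log2 scale (standard error 0.23, adjusted p = 0.0409 from limma). Within slide 2 the difference was -0.82. With normexp correction, the unsubtracted signal and the authors' values the log2 fold change was -0.37, -0.36 and -0.24. The last of these did not pass (adjusted p = 0.0523 from limma). The call was kept in 11 of 21 alternative settings and was lost when any array other than AR113Q replicate 3 was left out, with an adjusted p of up to 0.125. Probe 2 gave -0.25 (95% confidence interval from -1.16 to 0.65, adjusted p = 0.635), and probe 3 gave 0.35 (interval from -0.48 to 1.18, adjusted p = 0.463). With the mean of the 3 probes the log2 fold change was -0.19 (adjusted p = 0.636).

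Markers of other cell types in muscle were counted by list, where 22.5% of all tested genes were lower in AR113Q and 21.0% were higher. The sum of the 6 Schwann cell markers lay between 1204 and 3107 in WT and between 813 and 901 in AR113Q muscle on the linear scale, with 2 of 6 markers lower (among them S100b, -1.23) and 1 higher (Mbp 0.56). Satellite cell markers summed to between 1069 and 1562 in WT and between 964 and 1489 in AR113Q, with 1 of 4 tested markers higher and 1 lower. Calcr, the lower one, was well above background on 0 of 3 AR113Q arrays, and Myf5 was not tested. Fibroblast markers fell in 3 of 5 cases (sums of 75422 to 90200 in WT and 71757 to 96721 in AR113Q), myeloid markers in 2 of 6 with 1 higher (6413 to 10360 and 5240 to 5927), lymphocyte markers in 2 of 4 tested, smooth muscle markers in 2 of 4 (10626 to 12127 and 5827 to 10262), adipocyte markers in 3 of 4 (30674 to 60273 and 10366 to 19023), endothelial markers in 0 of 5 with 1 higher, and erythroid markers in 0 of 3 tested. The sums of the Schwann cell, myeloid, smooth muscle and adipocyte markers did not overlap between the genotypes. Dcn, the brightest fibroblast marker, weighed most in the fibroblast sum and did not pass (0.41), nor did Pdgfra (-0.27). Col3a1 (-4.62), Col1a1 (-3.27) and Lum (-2.39) were the fibroblast markers that fell. The 7 markers of skeletal muscle fibers were well above background on every array, with 2 of 7 lower (Mylpf -1.37, Ckm -0.80). The sum of the fiber markers lay between 683173 and 769480 in WT and between 492657 and 657196 in AR113Q muscle. The part of these cell types in the values of Ncam1, Hdac7, Hdac9 and Mef2c was not tested.

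The genes around the members were read from 6 lists with 68 genes, of which 63 were tested, each by its brightest probe. Of these, 13 were higher in AR113Q, against 21.0% of all tested genes, 17 were lower, against 22.5%, and 33 did not pass. The median log2 fold change was -0.17 over the 63 genes and -0.01 over all 16577 genes. Within slide 2 the differences of the leading genes were 2.40 for Sik1, -4.49 for Camk2a, -1.98 for Nr4a1 and 2.03 for Gadd45a.

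The kinases that drive class IIa HDACs out of the nucleus, with calcineurin, which draws them back, numbered 18 tested genes, of which 3 were higher, 5 lower and 10 did not pass. These counts are near the background of 21.0% higher and 22.5% lower over all tested genes, and the median log2 fold change was -0.11. Sik1, a salt-inducible kinase, had the largest increase, from 6.63, 6.87, 7.15 and 7.43 on the WT arrays to 9.27, 8.88 and 8.69 on the AR113Q arrays (log2 fold change 1.93, adjusted p = 0.000605 from limma). Sik3 (1.14) and Mark2 (0.68) also rose. Camk2a, a calcium/calmodulin-dependent kinase, had the largest decrease, from 9.76, 9.34, 9.37 and 9.49 on the WT arrays to 4.86, 5.97 and 5.72 on the AR113Q arrays (log2 fold change -3.97, adjusted p = 8.58e-05). Camk2b, Camk2d and Camk2g did not pass, with log2 fold changes between -0.20 and 0.08. Prkaa2, a catalytic subunit of AMPK, gave -1.34 (adjusted p = 0.000859), and the calcineurin subunits Ppp3cb (-0.86) and Ppp3r1 (-0.62) and the kinase Camk1 (-0.82) were lower as well. Mark2 kept its call in 13 of 21 alternative settings, Camk1 lost it with the authors' values (-0.28, adjusted p = 0.0899) and with slide as a fixed effect, and Ppp3r1 lost it with slide as a fixed effect and with the replicate block (adjusted p = 0.0666), while Sik1, Sik3, Camk2a, Prkaa2 and Ppp3cb lost theirs only with slide as a fixed effect. As with Runx1, sizes moved with the background handling: with normexp, the unsubtracted signal and the authors' values, Camk2a was at -2.50, -2.63 and -2.08 and Sik1 at 1.28, 1.37 and 1.11.

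Of the 7 genes of 14-3-3 proteins, 1 rose, 1 fell and 5 did not pass. For this list and the next, 21.0% of all tested genes were higher and 22.5% lower. Ywhag fell by 0.84 on the log2 scale (adjusted p = 0.00494 from limma). Sfn, which was well above background on 2 of 4 WT arrays, rose by 0.80 (adjusted p = 0.0122) and lost its call with 75th percentile scaling, normexp correction, the unsubtracted signal and slide as a fixed effect. Sfn was at 0.23 with normexp and 0.22 with the unsubtracted signal, and it met the filter only with the AR113Q arrays, where it was higher. Ywhaq (-0.46), Ywhah (-0.28), Ywhae (-0.24), Ywhab (0.12) and Ywhaz (0.12) did not pass, and the value of Ywhaz was -0.03 with 75th percentile scaling. Of the 9 other HDACs and corepressors, the corepressor Ncor1 (0.67, adjusted p = 0.0230) and the cytoplasmic deacetylase Hdac6 (0.62, adjusted p = 0.0194) were higher, and Hdac10 (-0.43, adjusted p = 0.0484) was lower, a call kept in 11 of 21 alternative settings. The call was kept in 16 of 21 for Ncor1 and in 17 of 21 for Hdac6, and both lost it with the replicate block (adjusted p = 0.0533 and 0.0695) and without WT replicate 1 (0.0520 and 0.0564). The other 6 did not pass.

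Relatives and partners of the members were tested for 5 of 8 genes. Of these, 1 was higher, against 21.0% of all tested genes, and 3 were lower, against 22.5%. Cbfb, which binds DNA together with RUNX proteins, was lower by a log2 fold change of -1.04 (adjusted p = 0.0236 from limma), a call kept in 15 of 21 alternative settings. With 1 array left out, Cbfb ranged from -1.37 to -0.68 and passed in 4 of 7 fits. Dach1, the paralog of Dach2, had a log2 fold change of -1.25 (adjusted p = 0.00274). St8sia4, an enzyme that adds polysialic acid to Ncam1, gave -1.37 (adjusted p = 0.00337). With the authors' values Dach1 was at -0.64 and St8sia4 at -0.80, and both passed. Mef2b, the fourth MEF2 gene, gave 0.96 (adjusted p = 0.0336) and was well above background on 2 of 4 WT arrays, and its call was kept in 9 of 19 alternative settings. It met the filter only with the AR113Q arrays, where it was higher. With normexp correction and the unsubtracted signal Mef2b was at 0.15 and 0.14 and did not pass. Runx3 did not pass (-0.94, adjusted p = 0.246, and -0.05 without AR113Q replicate 1), and Runx2, Ncam2 and St8sia2 were not tested.

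**Figure D4:**
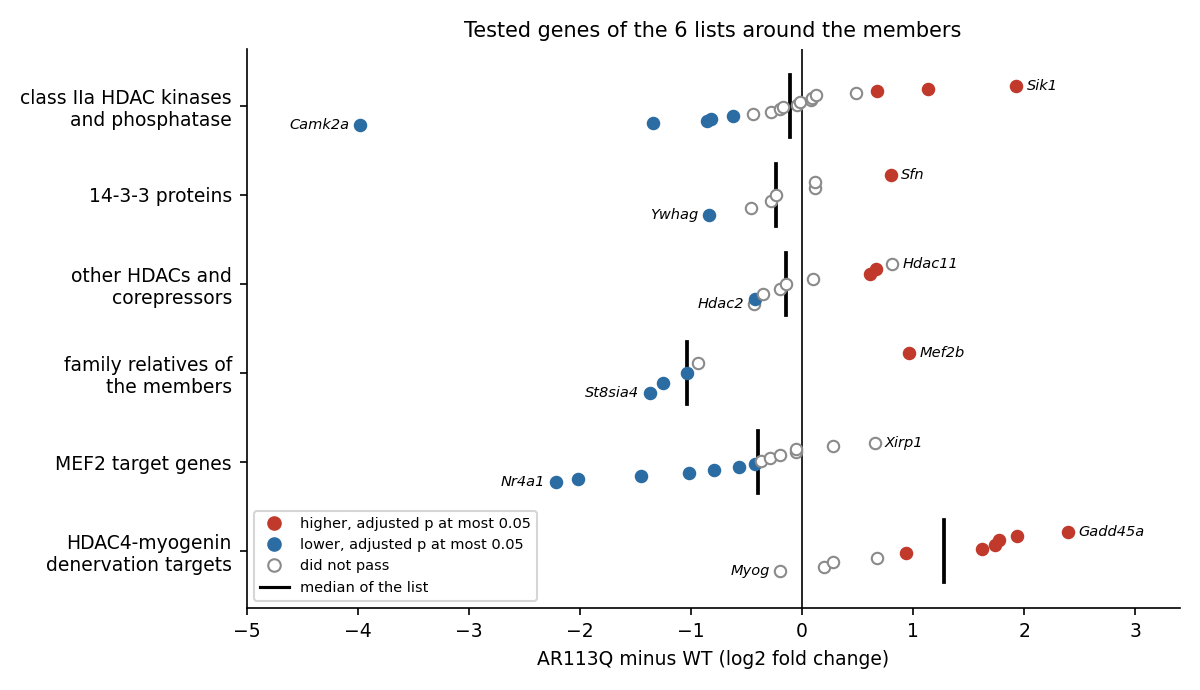
Log2 fold change of AR113Q over WT (horizontal axis) for the tested genes of 6 lists, 1 point per gene and a black line at the median of each list, with filled points for an adjusted p of at most 0.05 and the gene with the lowest and the highest value of each list named. The median of the denervation list is 1.28 and that of the MEF2 target list is -0.40.

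Genes that MEF2 factors switch on in muscle were lower or did not pass. Of 14 tested genes, 0 were higher, against 21.0% of all tested genes, 7 were lower, against 22.5%, and 7 did not pass, with a median log2 fold change of -0.40. The 7 fiber markers had a median log2 fold change of -0.60, and their summed signal, given above, was lower on every AR113Q array than on every WT array. The part of the fiber markers' shift in the values of these genes was not tested. Nr4a1, a nuclear receptor induced by activity, had the largest decrease, from 14.40, 15.69, 15.12 and 15.07 on the WT arrays to 13.72, 12.03 and 12.81 on the AR113Q arrays (log2 fold change -2.22, adjusted p = 0.00388 from limma). Srpk3 (-2.02), Xirp2 (-1.45), Smyd1 (-1.02), Ckm (-0.80), Slc2a4 (-0.57) and Myom1 (-0.42) were also lower, and Ckm is a fiber marker as well. Without AR113Q replicate 1, Srpk3 was at -1.20 and Smyd1 at -0.68 (adjusted p = 0.110). With 1 array left out, the call was kept in 2 of 7 fits for Smyd1, in 3 for Slc2a4 and in 1 for Myom1, and in all 7 for Nr4a1, Srpk3, Xirp2 and Ckm. The count of 7 became 4 without AR113Q replicate 1, AR113Q replicate 2 or WT replicate 3, and 1 gene was higher without WT replicate 4.

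Genes that rise with Hdac4 and myogenin in denervated muscle were higher or did not pass. Of 10 tested genes, 6 were higher, against 21.0% of all tested genes, 0 were lower, against 22.5%, and 4 did not pass, with a median log2 fold change of 1.28. Gadd45a, an Hdac4-dependent gene of denervated muscle, rose from 7.84, 8.82, 8.23 and 7.83 on the WT arrays to 10.86, 10.71 and 10.15 on the AR113Q arrays (log2 fold change 2.39, adjusted p = 0.000576 from limma). The ubiquitin ligases Trim63 (1.93) and Fbxo32 (1.74), the acetylcholine receptor subunits Chrna1 (1.77) and Chrnb1 (0.94) and the synaptic kinase Musk (1.62) rose as well. Fbxo32 kept its call in 16 of 21 alternative settings and lost it, among others, without AR113Q replicate 1 (1.41, adjusted p = 0.0847) and without WT replicate 4 (1.58, adjusted p = 0.0534). Myog itself, the gene of myogenin, had a signal of 7.29, 6.93, 7.75 and 8.79 on the WT arrays and of 7.43, 7.01 and 8.04 on the AR113Q arrays. Its genotypes overlapped, and the difference was -0.20 (standard error 0.44, adjusted p = 0.743). The receptor subunit Chrnd (0.20) and embryonic myosin Myh3 (0.67) were also among the 4 that did not pass, and Chrng was not tested. The count of higher genes stayed between 5 and 6 when any 1 array was left out.

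The genes whose pattern over the 7 arrays lay nearest to a member were read as the root mean square difference of log2 values centred on the WT mean, over probes well above background on all 7 arrays. Nearest to Runx1 probe 2, used because the brighter Runx1 probe was not above background on all arrays and so chosen after its values were seen, were Tiam2 (0.148), Zfand2a (0.159) and Ddi2 (0.160). Nearest to Hdac4 were Gm26808 (0.0680), Pde1b (0.0795) and Gm10451 (0.112), and nearest to Ncam1 probe 1 were Gm5296 (0.0842), Zfp672 (0.0986) and Gm9933 (0.107). These are the smallest of 8415 to 8690 differences each and describe the 7 arrays only.

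**Figure D5:**
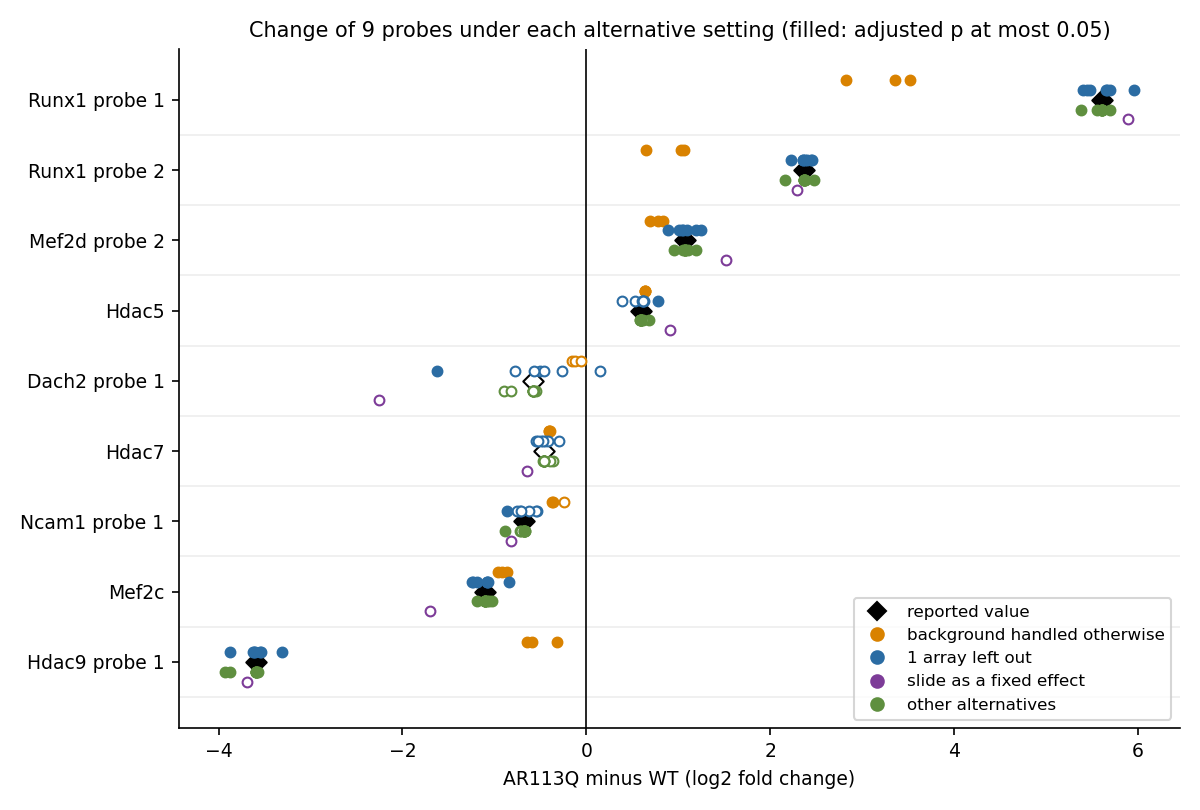
Log2 fold change of AR113Q over WT (horizontal axis) of 9 probes under each alternative setting, with a diamond for the reported value, colors for the kind of setting and filled points for an adjusted p of at most 0.05. Both Runx1 probes and Hdac9 probe 1 move toward 0 when the background is handled otherwise. Hdac5 and Ncam1 probe 1 lose the call when any 1 array other than AR113Q replicate 3 is left out. Dach2 probe 1 ranges from -2.26 to 0.15.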

How the data were processed

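Quadriceps RNA was hybridized to 1 single-dye array per mouse, 4 WT and 3 AR113Q, grouped by the genotype label. The authors scanned the arrays and then read the images with Agilent Feature Extraction 10.7.3.1, and in the deposited scanner files each spot has an intensity from which the background was subtracted, with no normalization between arrays. The authors also deposited log2 values that their methods describe as quantile normalized. Those 18592 probes followed the mean spot signal (r from 0.991 to 0.999 across probes), and they were used as an alternative. Here log2 intensities of 43020 non-control spots were quantile normalized without outlier spots (94 to 151 per array), and probes well above background on 3 of 7 arrays were tested with limma 3.58.1 in R 4.3.3. Background subtraction widens the log2 scatter of dim spots. In simulated data with the same groups over 20948 probes, the test found 82% of 200 probes with a true log2 change of 2 (16 false calls), 14% with a true change of 1 (2 false calls), and 0 where nothing was changed. Only 200 probes were changed there, with independent noise, where 43.8% of tested probes passed in the real data. The adjustment depends on that share, so these recoveries do not give the power of the real comparison.

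Symbols came from RefSeq accessions (GRCm38.p6), which matched 28330 of 39429 probes, or else from the array's own names. Positions of probes follow mm9, as in the array annotation, and exons were not assigned because no mm9 annotation was used here. The genes named are the members, the extremes of each list, lists of at most 8 genes whole, and the nearest patterns; other list genes were named after their values were seen. Members and lists were chosen with earlier results of these data known. Protein sequences were not used here, and some genes that were measured are left unnamed. The alternatives were 75th percentile scaling, normexp with an offset of 50, the unsubtracted mean signal, the authors' values, other probe filters, outlier spots kept, an intensity trend, array weights, slide or replicate number as a block, 1 value per gene, no fold threshold, and each array left out, with the probes kept as for 7 arrays. Without a fold threshold the fit and its adjusted p-values stay as reported, so that setting could not change the call of any probe or gene.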

Additional observations from a re-analysis of the deposited data

Results flagged for a closer look

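In 4 of 78 sets of 4 WT values, 5.13%, 1 array stood apart from the other WT arrays by Dixon's ratio, and chance gives about 1 in 20. Mef2c was lowest on WT replicate 4, with a signal of 9.62 against 9.92 to 9.97 on the others. Runx1 probe 1 was lowest on WT replicate 1, with 4.37 against 4.99 to 5.10. Mark2 was highest on WT replicate 4, with 7.04 against 6.67 on each of the others, and Hdac6 was lowest on WT replicate 1, with 8.83 against 9.06 to 9.09.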

How the results depend on the processing

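Runx1 probes 1 and 2, Mef2c and Mef2d probe 2 kept their direction in every alternative in which they were tested and passed in all but slide as a fixed effect, where their adjusted p-values were 0.0508, 0.0508, 0.0612 and 0.0774. Hdac9 probe 1 (0.0894 there) entered the test through WT alone, which fixed its direction, so its alternatives say nothing about stability. That fit rests on the pair of arrays of slide 2 and left 0 member probes and 0 list genes past the threshold in either direction, with 7928 of all probes at an unadjusted p of at most 0.05 in limma. In it Hdac4 was at -0.23, Ncam1 probe 3 at -0.63 and Myog at 0.50, each with its sign turned. The count of differentially expressed member probes that were lower went from 2 to 0 with normexp correction, with the unsubtracted signal and with the authors' values, and to 1 when all 7 arrays had to be above background. The count that were higher went from 3 to 1 with the authors' values, with the brightest probe per gene and with the mean over a gene's probes, and with the brightest probe per gene 2 member probes passed as higher. Over all probes the counts, 2555 higher and 2653 lower, became 982 and 1106 with normexp, 1067 and 1197 with the unsubtracted signal, 735 and 857 with the authors' values, 4661 and 4538 without a fold threshold, and 0 and 0 with slide as a fixed effect.

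Values near 0 changed sign in places: Mef2a probe 2 was 0.0756 with array weights and 0.0106 with slide as a random block, and Ywhaz -0.0330 with 75th percentile scaling. Runx3, which did not pass, went from -0.94 to 0.0140 with normexp and -0.00891 with the unsubtracted signal. With 1 array left out, member probes that passed numbered 3 to 4 higher and 2 to 4 lower, differentially expressed ones 2 to 3 higher and 1 to 3 lower (1 without AR113Q replicate 1), and list genes 10 to 13 higher and 12 to 18 lower. Mef2a probe 2 ranged from -0.139 to 0.185 over these fits, Hdac4 from -0.11 to 0.16, Dach2 probe 1 from -1.62 to 0.15, Ncam1 probe 2 from -0.69 to 0.11 and Myog from -0.47 to 0.17. Hdac5, Ncam1 probe 1 and Hdac7 lie near the threshold and are given with their alternatives above. The causes were not tested.

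Deviations of same-numbered arrays correlated at 0.0541, 0.0203 and 0.194 across 17108 probes, and those of other numbers at -0.202 to 0.157. With so few pairs, these values cannot settle whether the replicate numbers paired the samples. With the replicate number as a block, list genes that were lower went from 17 to 11, Hdac5 (0.62, adjusted p = 0.118) and Ncam1 probe 1 (-0.71, adjusted p = 0.113) did not pass, Mef2a probe 2 was 0.0224 and Myog 0.17, and all probes gave 2558 higher and 2632 lower. Dach2 and, in WT muscle, Runx1 probe 1 were not above background on every array.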
